A study of Mus musculus with 71 samples.

Results

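Loss of miR-92a-1 was measured in embryonic tail buds that already lacked miR-17, miR-20a and miR-18a. The comparison used 6 of the 71 libraries of the series, chosen by their labels: 3 of genotype Delta_17_18_92 (written Δ17,18,92) and 3 of genotype Delta_17_18 (Δ17,18). Both genotypes lack miR-17, miR-20a and miR-18a, so what separates them by label is miR-92a-1, and miR-19a and miR-19b-1 are kept in both. All embryos were C57BL/6 at embryonic day 9.5 with 20 to 22 somites, from timed matings of mutant animals, and the tail bud was microdissected and its RNA sequenced in single reads of 50 bases. Whether the alleles were made separately, and from how many founders, was not given in the sources used here. A second pair of groups measured the same loss in other libraries. These were 3 tail bud libraries of Delta_92 (Δ92), which lacks miR-92a-1 alone, and 3 of Wild-type. Both comparisons take their spread from a shared fit. The shared fit and some levels also use Delta_17 (Δ17, without miR-17 and miR-20a), Delta_18 (Δ18, without miR-18a), Delta_19 (Δ19, without miR-19a and miR-19b-1) and Full-KO, without the whole cluster, each with 3 tail bud libraries. Hearts (3 and 3 libraries) and the remaining embryo (2 of Δ17,18,92 and 3 of Δ17,18) were compared in the same way.

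The miR-17~92 cluster is a set of microRNAs cut from 1 primary transcript. A microRNA guides a silencing complex to messenger RNAs that carry a match to its seed, usually in the 3′ untranslated region (UTR), and lowers the level and translation of those messages, so that targets rise when it is lost. The cluster holds 4 seed families, and in the mouse its loss disturbs growth, lung and heart development and the axial skeleton that forms from the tail bud.

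The mature miR-92a-3p lies on chromosome 14 (chr14:115044476-115044496, plus strand, GRCm38.p6, RefSeq), within the host gene Mir17hg. The sequences of the cluster's main strands are shown because the seed, bases 2 to 8 in capitals, defines which messages each family can pair with.

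miR-92a-3p: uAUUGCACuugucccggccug
miR-17-5p: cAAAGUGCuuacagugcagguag
miR-20a-5p: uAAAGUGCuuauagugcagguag
miR-18a-5p: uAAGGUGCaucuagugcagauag
miR-19a-3p: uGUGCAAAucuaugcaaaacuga
miR-19b-3p: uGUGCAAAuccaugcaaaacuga

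The seed AUUGCAC is also carried by miRNAs encoded elsewhere, which all genotypes keep by label: miR-92a-3p of a copy on chromosome X, miR-25, miR-32, miR-92b, miR-363 and miR-367. Of these, miR-25 and miR-92b are shown as examples.

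miR-25-3p: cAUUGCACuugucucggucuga
miR-92b-3p: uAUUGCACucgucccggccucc

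A complete match to the miR-92 seed followed by A (8mer, GTGCAATA) occurred in the longest annotated 3′ UTR of 396 of 14016 tested genes with a UTR, or 2.83%. Sites of the genes that the results turn on are printed as 30 bases of the UTR, with the 8mer in capitals.

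Lhfpl2: tatacaagtttgtctaatagatGTGCAATA
Lhfpl2: ctggcttaggacagaccattccGTGCAATA
Man2a1: ttgttaccgtccttggtttaacGTGCAATA
Fndc3b: gcagtaactttaagagggcattGTGCAATA
Dkk3: cccagctgagtcactggtagatGTGCAATA
Itga5: acttatttaaactctgttgcaaGTGCAATA
Bcl2l11: cagggtaattgccactgtacctGTGCAATA

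The first site of Lhfpl2 (chromosome 13) started at base 2510 and the second at base 2958 of a UTR of 3308 bases. The Dkk3 site (chromosome 7) started at base 30 of 2194 bases, close to the stop codon, and the Itga5 site (chromosome 15) at base 3908 of 3944 bases, close to the end of the transcript.

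The 6 libraries held 19292571 to 27451024 counts. Of the 3 Δ17,18 libraries, 2 had female levels of Xist RNA (2100 and 2158 CPM, the count of a gene scaled to a common library size) and 1 had RNA of Y-linked genes (264 CPM). Of the 3 Δ17,18,92 libraries, 1 had Xist RNA (1668 CPM) and 2 had Y-linked RNA (253 and 248 CPM). Wild-type replicate 3 stood apart from the other tail bud libraries. It had the fewest counts (15134178), both Xist (52.0 CPM) and Y-linked RNA (255 CPM), and the lowest miR-92 target score of the 24. All 3 Δ92 libraries had Xist RNA (1761 to 1966 CPM) and no more than 0.872 CPM of Y-linked RNA, whereas 2 of the 3 wild-type libraries had Y-linked RNA (239 and 255 CPM), so sex was unequal in that comparison. Wild-type replicate 3 enters the comparison with Δ92 directly and the main comparison only through the shared estimate of spread, so results are also given without it.

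A total of 114 of 17009 tested genes differed between Δ17,18,92 and Δ17,18 tail buds (0.67%, adjusted p under 0.05). Of these, 94 (0.553% of the tested genes) were higher and 20 (0.118%) lower in Δ17,18,92. The changes were small: the median absolute log2 fold change of the called genes was 0.35. The 3 libraries of 1 group did not overlap those of the other for all 114, against 18.1% of all tested genes. The count rested on few libraries. It was 240 without wild-type replicate 3, 62 and 55 without Δ17,18 replicates 2 and 3, and 56 and 64 without Δ17,18,92 replicates 2 and 3.

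Mir17hg, the long noncoding host transcript of the cluster, was looked at first. It was at 268, 263 and 248 CPM in Δ17,18 and at 413, 412 and 437 CPM in Δ17,18,92, a rise of 0.70 ± 0.07 (SE) on the log2 scale (adjusted p = 1.11e-06). It also rose in Δ92 against wild type, from 132, 142 and 111 to 154, 167 and 183 CPM (0.39 ± 0.07, adjusted p = 0.00662). A high level was not particular to genotypes without miR-92a-1. The mean was 243 CPM in Δ17 and 178 CPM in Δ19, which keep it, against 128 CPM in wild type and 137 CPM in Δ18. In the full knockout it was 358 CPM. The neighbouring glypican gene Gpc6 stood at 0.06 ± 0.06 (adjusted p = 0.788) and Gpc5, at under 1 CPM in all 6 libraries, at 0.03 ± 0.54 (adjusted p = 0.993), with a sign that turned when single libraries were left out. Mcm7, which hosts the related cluster that holds miR-25, stood at 0.05 ± 0.06 (adjusted p = 0.852). The 6 hairpin genes of the cluster had 0 counts in every library, so the table does not itself check the deletions, and the host transcript's level is no measure of the mature miRNAs.

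**Figure D1:**
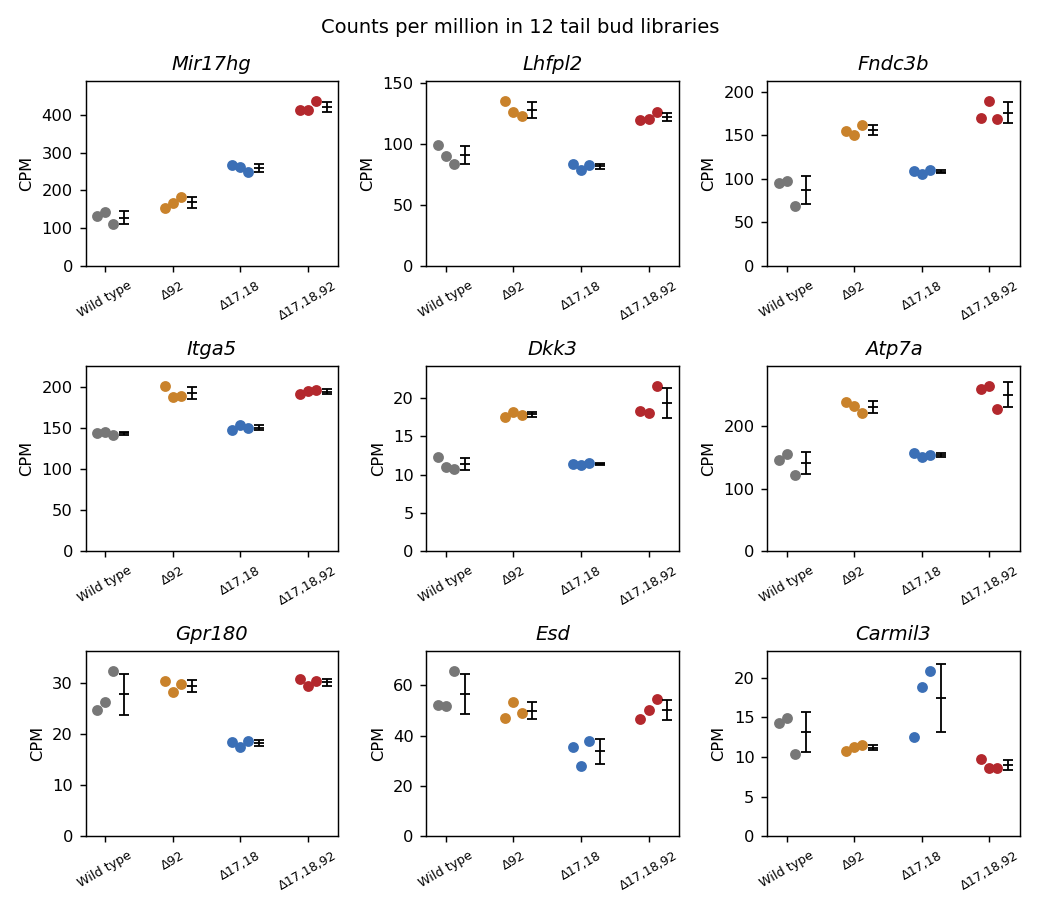
CPM in the 3 libraries of each of 4 tail bud genotypes (points), with mean ± SD beside them. For Lhfpl2, Fndc3b, Itga5, Dkk3 and Atp7a, every Δ92 and Δ17,18,92 library is above every wild-type and Δ17,18 library, whereas Gpr180 and Esd are lower in Δ17,18 than in the other 3 genotypes shown.

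Genes with a miR-92 8mer made up 48 of the 94 higher genes. Of the 396 tested, 48 were called higher and 0 lower. So 12.1% of them were called higher, against 0.553% of all tested genes and 0.649% of those with a UTR. Their median log2 fold change was 0.10, against -0.01 for all tested genes, and 72.2% were above 0. Genes whose best match was a 7mer-m8 (the seed without the A) had a median of 0.03 (716 genes, 15 called higher and 1 lower), and genes with a 7mer-A1 (bases 2 to 7 and the A) a median of 0.01 (909 genes, 5 higher). In genes with no match the median was -0.01, and 23 of 11995 were called higher and 18 lower. All 4 classes come from the same fit, and this order is a description. The 8mer genes had a median log2 CPM of 5.23 and a median UTR of 2700 bases. All tested genes with a UTR had 4.73 and 1354 bases, and the classes were not matched for either.

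**Figure D2:**
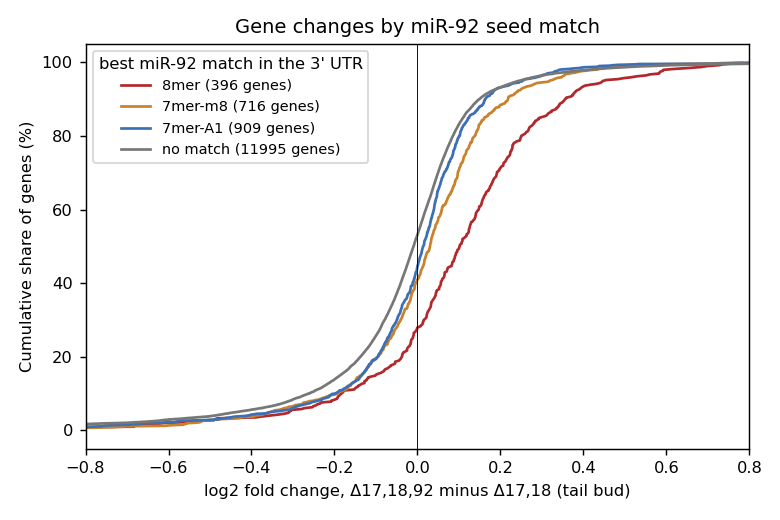
Cumulative share of tested genes (%) by log2 fold change, Δ17,18,92 minus Δ17,18 in tail bud, for genes grouped by their best miR-92 seed match. The curve of the 396 genes with an 8mer lies to the right of the others, and that of the 716 genes with a 7mer-m8 lies between it and the genes without a match.

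For the other families the medians lay near that of all tested genes. The median was -0.01 for 618 genes with a miR-17 8mer, -0.01 for 256 with a miR-18 8mer, and 0.01 for 869 with a miR-19 8mer. Of these classes, 5, 0 and 10 genes were called higher (0.809%, 0% and 1.15%, against 0.553% of all tested genes) and 0, 1 and 2 lower. Genes matching the passenger strand, miR-92a-1-5p, had a median of -0.02 (456 genes, 2 higher and 1 lower). Among genes with a miR-92 8mer and no 8mer or 7mer-m8 match to the other 3 families, the median was 0.11 and 25 of 202 were called higher.

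The 16 genes with 2 or more 8mers had a median of 0.15 and 5 of them were called higher, against 0.10 and 43 of 380 for genes with 1. In Δ92 against wild type the medians were 0.21 and 0.13. There 1 of the 16 and 32 of the 380 were called higher, so the larger share of calls did not recur. Genes with an 8mer that were called higher had more expression than those not called (median log2 CPM 6.48 against 4.94). A small change passes the threshold more easily at higher counts, so the 2 sets are partly sorted by expression. The 22 bases before the site were 63.6% A or T at the median in called genes and 59.1% in the rest. The median distance to the nearer end of the UTR was 319 and 447 bases. Whether these differences follow from that sorting was not tested.

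Among the called genes with an 8mer, Lhfpl2, a tetraspan membrane protein gene, was at 83.7, 79.2 and 82.6 CPM in Δ17,18 and at 120, 121 and 127 CPM in Δ17,18,92 (0.58 ± 0.05, adjusted p = 3.57e-07). Man2a1, a Golgi mannosidase that trims N-glycans, went from 124, 119 and 111 to 182, 186 and 165 CPM (0.59 ± 0.05, adjusted p = 3.98e-07). The 2 groups of libraries were well apart for both genes.

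Dkk3, a secreted protein of the Dickkopf family, was at 11.4, 11.3 and 11.6 CPM and rose to 18.3, 18.1 and 21.6 CPM, the largest increase among the higher genes named by the fixed rule (0.76 ± 0.10, adjusted p = 0.00014). Fndc3b, a fibronectin type III domain gene, went from 109, 106 and 110 to 170, 189 and 168 CPM (0.70 ± 0.08, adjusted p = 1.85e-05). Nox4, a NADPH oxidase, went from 5.01, 6.45 and 4.87 to 9.17, 8.02 and 8.63 CPM (0.66 ± 0.14, adjusted p = 0.0174), but its adjusted p reached 0.144 when single libraries were left out. Further genes with an 8mer rose by 0.25 to 0.45: Ccdc186, Necap1, Sfxn1, Mis12, Aars, Ube2z and Pcgf3.

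Atp7a, the copper transporter on chromosome X, rose by a similar size without a match in its longest annotated UTR, which is 311 bases long. It was at 158, 151 and 153 CPM in Δ17,18 and 259, 265 and 228 CPM in Δ17,18,92 (0.70 ± 0.06, adjusted p = 3.72e-07). The match was searched in that annotated window only. With sex as a factor, chosen after seeing the data, Atp7a stood at 0.70 ± 0.07 (adjusted p = 1.31e-06), and at 0.71 ± 0.07 in Δ92 against wild type (adjusted p = 5.39e-06).

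Of 17 tested genes listed as reported miR-92 targets, 3 rose and none fell. Itga5, the integrin subunit of the fibronectin receptor, went from 148, 154 and 150 to 191, 195 and 197 CPM (0.37 ± 0.04, adjusted p = 1.85e-05). Bcl2l11, the pro-apoptotic BH3-only gene Bim, went from 60.8, 61.4 and 65.1 to 75.8, 73.1 and 70.7 CPM (0.23 ± 0.05, adjusted p = 0.0266). The call of Bcl2l11 ended when single libraries were left out, with an adjusted p up to 0.129. Mylip, which carries an 8mer and encodes a ubiquitin ligase, stood at 0.21 ± 0.11 without passing (adjusted p = 0.497). Fbxw7, a substrate receptor of a ubiquitin ligase, stood at 0.29 ± 0.07 (adjusted p = 0.0733).

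Of 18 integrin and matrix genes tested, 3 rose (Itga5, Itgav and Itgb1), none fell and 17 were above 0, with a median of 0.21; of all tested genes, 0.553% rose and 48.4% were above 0, with a median of -0.01. Itgav, the alpha-v integrin subunit, went from 132, 137 and 137 to 195, 180 and 152 CPM (0.37 ± 0.07, adjusted p = 0.00278), and missed the threshold when only the 6 libraries compared were fitted (adjusted p = 0.0757). Itgb1, the beta-1 integrin subunit shared by many receptors, went from 422, 435 and 415 to 488, 502 and 500 CPM (0.23 ± 0.05, adjusted p = 0.0466), and was lost when single libraries were left out (adjusted p up to 0.222). Itgav and Itga5 carry an 8mer and Itgb1 a 7mer-m8.

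In the list of cholesterol synthesis and handling, 0 of 22 genes passed, although 21 were above 0 and the median was 0.25. Insig1, which holds the sterol sensor in the endoplasmic reticulum, stood at 0.49 ± 0.21 (adjusted p = 0.396) and Sqle, the squalene epoxidase of that pathway, at 0.32 ± 0.15 (adjusted p = 0.451). Among the cell death and growth arrest genes, Btg2, an antiproliferative p53 target with 2 miR-92 8mers, rose from 117, 109 and 96.6 to 141, 152 and 144 CPM (0.44 ± 0.09, adjusted p = 0.0193, up to 0.148 without single libraries). It was the 1 of 16 p53 targets called, and Bcl2l11 was the 1 of 15 BCL2 family genes called. None of 29 cell cycle genes (median 0.03), 16 hypoxia and glycolysis genes (0.04), 16 MYC and polycomb regulators (0.01) and 19 reported targets of the other seed families (0.02) passed. Of all tested genes, 0.67% were called.

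No listed patterning gene of the tail bud passed, but only 0.67% of all tested genes did. Lists this short can hold 0 called genes at that share, so the counts do not show that patterning genes were spared. None of 37 Hox genes (median -0.04), 19 tail bud progenitor genes (-0.00), 22 genes of Notch signalling and the segmentation clock (0.08), 11 genes of axial patterning by GDF11 (0.05) and 25 genes of TGF-beta and BMP signalling (0.02) was called. The tail bud progenitor genes summed to 1974 to 2231 CPM in Δ17,18 and to 2063 to 2258 CPM in Δ17,18,92, so the labelled tissue was present in both groups at overlapping levels.

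The summed RNA of red blood cell genes stood apart between the 2 groups of libraries, but the sum was not tested. The 12 primitive erythroid genes summed to 3443 to 7600 CPM in the Δ17,18 libraries and to 1528 to 3117 CPM in the Δ17,18,92 libraries, without overlap, and over all 24 tail bud libraries they ran from 819 to 12412 CPM. All 12 were below 0, with a median log2 fold change of -1.28, and none passed. Hbb-bt and Hbb-bs overlapped between the groups, and 18.1% of all tested genes did not overlap. Klf1, the erythroid transcription factor, stood at -1.49 ± 0.51 (adjusted p = 0.272), from 8.11, 12.1 and 13.7 to 4.74, 3.14 and 4.15 CPM. In bulk tissue, fewer cells of a type and less RNA per cell cannot be told apart. In Δ92 against wild type the same genes had a median of 0.26. The part of these genes in the other results was not tested. The summed markers of cardiomyocytes, endothelium, neural tissue, somite derivatives, neural crest, endoderm and surface ectoderm overlapped between the groups.

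Among the 20 genes lower in Δ17,18,92, Carmil3, a regulator of actin capping, fell from 12.6, 18.8 and 20.8 to 9.69, 8.60 and 8.67 CPM (-0.96 ± 0.15, adjusted p = 0.00141). Sh3bp1, which encodes an SH3 domain binding protein, fell from 58.1, 54.5 and 55.0 to 40.6, 43.0 and 44.3 CPM (-0.39 ± 0.06, adjusted p = 0.00149). Cyp26b1, which breaks down retinoic acid, fell from 7.13, 4.93 and 5.42 to 4.17, 2.75 and 2.42 CPM (-0.90 ± 0.21, adjusted p = 0.0322, up to 0.274 without single libraries). Bbs1, of the ciliary BBSome, fell by 0.50 ± 0.09 on the log2 scale, and the kinase scaffold genes Mapk8ip1 and Mapk8ip2 by 0.30 and 0.65. Of the 20 lower genes, 18 had no miR-92 match in the UTR, 1 had a 7mer-m8 and 1 had no UTR. Of the 14016 tested genes with a UTR, 11995 had no match, so this was not particular to the lower genes.

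The same loss on the wild-type background gave the same direction for the 8mer genes. Δ92 against wild type called 61 genes (0.359%), 55 higher (0.323%) and 6 lower (0.0353%). The libraries of the 2 comparisons differ, but both use the spread of the shared fit, so their calls are not independent. In both comparisons 33 genes were called, all in the same direction, which is 28.9% of the 114 and 54.1% of the 61. All 48 higher genes with an 8mer were above 0 in Δ92, 24 of them called, with medians of 0.32 in the first comparison, which chose them, and 0.25 in the second. Over all 396 tested 8mer genes the medians were 0.10 and 0.13, and 80.1% were above 0 in Δ92, against 47.6% of all tested genes. Of the higher genes without an 8mer, 42 of 46 were above 0 and 9 were called. The lower genes had a median of -0.58 and of -0.06 in Δ92, where 15 of the 20 were below 0; Mapk8ip2 stood at -0.49 there and Cyp26b1 at -0.39, neither called.

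The 2 effects were compared directly. Fndc3b stood at 0.83 ± 0.08, Atp7a at 0.71 ± 0.06, Man2a1 at 0.60 ± 0.05, Lhfpl2 at 0.49 ± 0.05 and Itga5 at 0.42 ± 0.04 in Δ92 against wild type, all called. In the edgeR test of the difference between the effects 0 genes passed of 17009 (1434, or 8.43%, at an unadjusted p under 0.05, and 4 by DESeq2). The smallest adjusted p of the difference was 0.0718, shared by Gpr180 and Esd. The count in Δ92 depended on its libraries. It was 40 with sex as a factor, a setting chosen after seeing the data, and 147, 104 and 36 without wild-type replicates 1, 2 and 3, and 29 and 27 without Δ92 replicates 1 and 3. Fitted on its 6 libraries alone it was 0 (737 of 15832 genes at an unadjusted p under 0.05). Without wild-type replicate 3, a setting chosen for this overlap after seeing the data, 31 genes were called in both comparisons, and 20 of the 48 higher 8mer genes were called in Δ92 and all 48 were above 0.

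**Figure D3:**
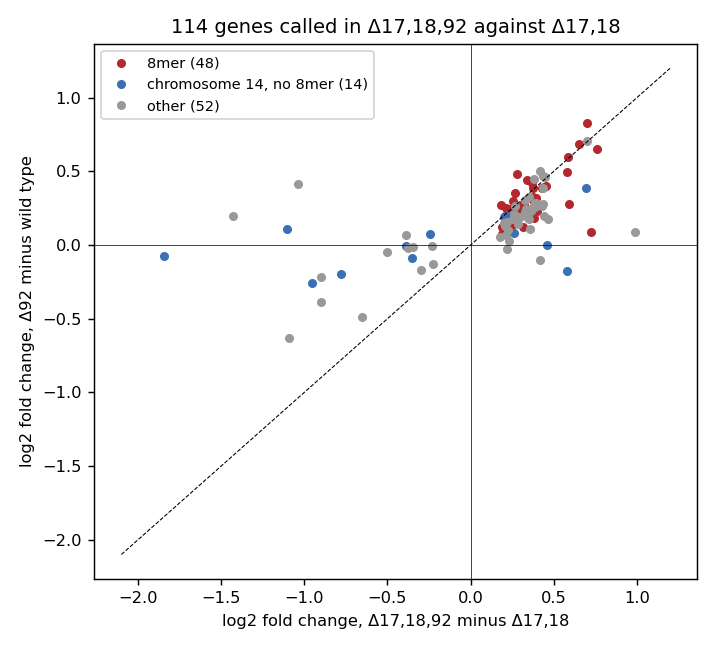
The 114 genes called in Δ17,18,92 against Δ17,18, by log2 fold change in that comparison (horizontal) and in Δ92 against wild type (vertical), with a dashed line where both are equal. The 48 genes with an 8mer (red) all lie above 0 on both axes, and the 20 lower genes have a median of -0.06 on the vertical axis, with 15 below 0.

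A score per library put this in 1 number: the mean log2 CPM of genes with a miR-92 8mer minus that of genes with no 8mer or 7mer-m8 of any of the 4 families. It was 0.68, 0.66 and 0.66 in Δ17,18 and 0.83, 0.80 and 0.76 in Δ17,18,92. The difference was 0.13, and the libraries did not overlap. The same score for miR-19 8mer genes did not overlap either, with a smaller difference of 0.03. For miR-17 and miR-18 8mer genes the difference was 0.01 each, and the libraries overlapped. In Δ92 the mean miR-92 score was 0.75 and in wild type 0.60, where replicate 3 stood at 0.51. The score's mean in the full knockout was 0.80, and in Δ17, Δ18 and Δ19 it was 0.64, 0.65 and 0.61. Every library whose label lacks miR-92a-1 (Δ92, Δ17,18,92 and Full-KO, 9 libraries) was above every library that keeps it (15 libraries).

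**Figure D4:**
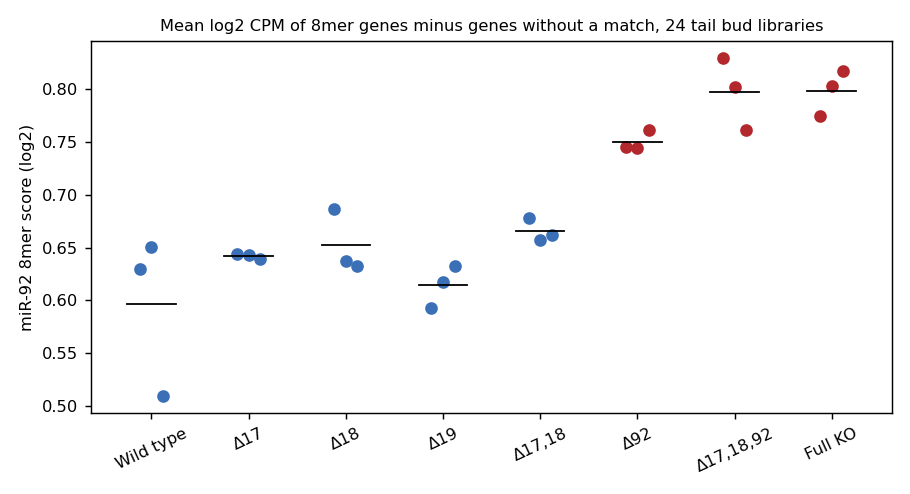
The miR-92 8mer score (log2) of the 24 tail bud libraries, as points by genotype with the group mean as a line; red marks genotypes without miR-92a-1. The 9 red libraries lie above the 15 blue libraries, and wild-type replicate 3 is the lowest of all.

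In the heart, the same genotypes differed in 116 of 16750 genes (0.693%; 80 or 0.478% higher, 36 lower), and those of the remaining embryo in 441 of 17512 (2.52%; 332 or 1.9% higher, 109 lower). Of the 94 genes higher in tail bud, 84 were above 0 in heart, 30 of them called higher, and 92 were above 0 in the rest, 70 called higher. Of the genes tested both in tail bud and in the other tissue, 50.5% were above 0 in heart and 47.5% in the rest. Called higher in all 3 tissues were 30 genes, 20 of them with an 8mer. The tested 8mer genes had a median of 0.04 in heart, and of 0.11 in the remaining embryo. The libraries of the 3 tissues come from labelled parts of embryos of the same genotype, and whether 1 embryo gave several was not given in the sources used here.

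Itga5 was higher in all 3 tissues (heart 0.39, adjusted p = 0.0466; rest 0.57, adjusted p = 5.40e-09). Fndc3b stood at 0.42 (adjusted p = 0.00200) and 0.79 (4.75e-13), and Dkk3 at 0.62 (8.96e-06) and 0.97 (3.85e-07). In the test of the difference between tissues, edgeR called 0 genes for tail bud against heart (1451, or 7.99%, at an unadjusted p under 0.05, 43 by DESeq2) and 0 for tail bud against the rest (508, or 2.8%, and 3 by DESeq2) of 18164 tested. The heart count ranged most: it was 377, 31 and 61 without Δ17,18 replicates 1, 2 and 3, and 222, 50 and 65 without Δ17,18,92 replicates 1, 2 and 3. The rest gave 99 without Δ17,18,92 replicate 2 and 268 without Δ17,18 replicate 2.

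Chromosome 14, which carries the cluster, held 17 of the 114 called genes. They made up 3.10% of its 549 tested genes, against 0.589% of the genes elsewhere, and they included 7 of the 20 lower genes. In Δ92 against wild type, 0.364% of the tested genes of chromosome 14 were called, against 0.359% of all tested genes. Mir17hg was the 1 called among the 17, and 4 others narrowly missed the threshold. Near misses among the other called genes were not counted. Ppp3cb stood at 0.20 in the main comparison and 0.19 in Δ92 (adjusted p = 0.0548), Eaf1 at 0.23 and 0.21 (0.0666), Exoc5 at 0.21 and 0.20 (0.0677) and Rpl15 at 0.59 and 0.28 (0.0682). In the same direction, 8 of the 17 were called in hearts and 12 in the remaining embryo. Of all 114 called genes, 29.8% were called in the same direction in heart and 67.5% in the remaining embryo. The called genes lay over most of the chromosome and not only beside the cluster.

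**Figure D5:**
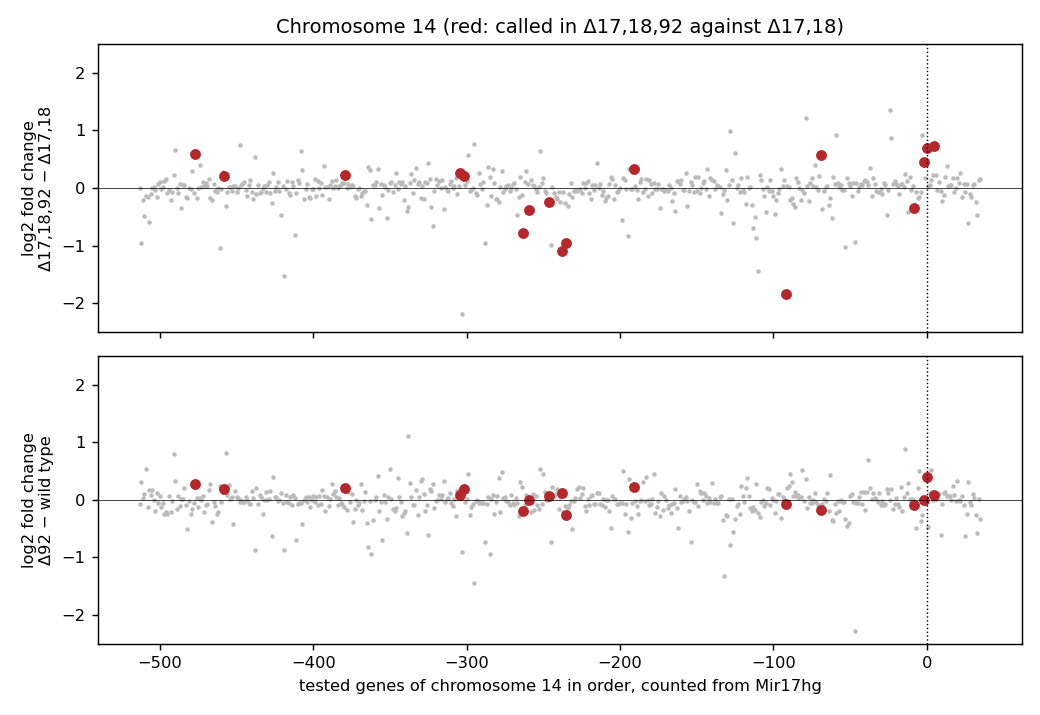
Log2 fold change of the tested genes of chromosome 14 in their order, counted from Mir17hg (dotted line), in Δ17,18,92 minus Δ17,18 (top) and Δ92 minus wild type (bottom). The 17 genes called in the first comparison are red, and in the second they run from -0.26 (Carmil3) to 0.39 (Mir17hg).

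Gpr180, a membrane protein gene with an 8mer that lies 5 tested genes from Mir17hg, was at 18.5, 17.6 and 18.7 CPM in Δ17,18 and at 30.7, 29.4 and 30.5 CPM in Δ17,18,92 (0.73 ± 0.08, adjusted p = 8.02e-06). Wild type was at 24.6, 26.4 and 32.4 CPM, and Δ92 at 30.4, 28.2 and 29.8 CPM. Over all tail bud genotypes the gene had a low level in Δ17 (17.9 ± 0.7 CPM, SD, n = 3), Δ19 (18.0 ± 1.1) and Δ17,18 (18.3 ± 0.6) and a higher level in Δ18 (25.2 ± 1.3), wild type (27.8 ± 4.1), the full knockout (28.4 ± 1.4), Δ92 (29.5 ± 1.1) and Δ17,18,92 (30.2 ± 0.7).

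Esd, an esterase gene without a miR-92 match, had its lowest levels in Δ17,18. It was at 35.4, 28.1 and 37.9 CPM there and at 46.5, 50.0 and 54.4 CPM in Δ17,18,92 (0.58 ± 0.09, adjusted p = 0.00124), whereas the means of the other 6 genotypes were 47.4 to 56.6 CPM. Slitrk5, a neuronal membrane protein gene, was at 11.0, 9.61 and 12.2 CPM in Δ17,18, at 14.6, 15.5 and 14.8 CPM in Δ17,18,92 and at 14.1, 15.7 and 16.2 CPM in wild type, with Δ17 at a mean of 11.5 CPM and Δ18 at 13.0 CPM (0.46 ± 0.10, adjusted p = 0.0209, up to 0.182 without single libraries). Phyhip, named after its values were seen, was at 3.36, 2.99 and 3.54 CPM in Δ17,18 and at 0.826, 0.918 and 0.992 CPM in Δ17,18,92 (-1.84 ± 0.28, adjusted p = 0.000522). Wild type had 1.80, 0.931 and 1.06 CPM.

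The place of wild type was then set beside both groups, as a description chosen after these values were seen. For 45 of the 48 genes with an 8mer, the Δ17,18 mean was nearer to the wild-type mean than the Δ17,18,92 mean was. For the 52 called genes without an 8mer that were not placed on chromosome 14, the Δ17,18 mean was also the nearer one in 40. This position was therefore not particular to 8mer genes, and it was not counted over all tested genes. For the 14 called genes of chromosome 14 without an 8mer, the Δ17,18,92 mean was the nearer one in 8, and for the 20 lower genes in 11. Loss of miR-92a-1 and any other difference between the 2 alleles cannot be told apart in this comparison. Rpl15, a ribosomal protein gene of chromosome 14 with an 8mer, rose from 71.6, 64.1 and 69.8 to 98.6, 101 and 110 CPM (0.59 ± 0.07, adjusted p = 9.56e-06), and its value is given as uncertain, since the sources used here do not state how reads shared with near-identical copies were counted, and their part was not tested.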

How the data were processed

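The deposited values are raw counts of reads per gene in 1 table of 37620 Ensembl gene IDs and 71 libraries. Reads were handled with Subread 1.4.2 (featureCounts), STAR 2.3.0 and SAMtools 0.1.14 on mm9 or NCBIM37, according to the submitters' processing notes. The sources used here do not state annotation release, strand setting or treatment of multi-mapping reads. Symbols matched 32897 IDs.

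From these counts, all 24 tail bud libraries (8 genotypes) were fitted with edgeR 4.0.16 (R 4.3.3): filterByExpr, TMM, robust quasi-likelihood and Benjamini-Hochberg adjustment at 0.05. Heart (24) and rest (23) were fitted separately, and tissue differences over 17 libraries. DESeq2 1.42.0 was an alternative. CPM used TMM factors, and log2 CPM a prior count of 2. Seed matches (GTGCAATA as 8mer, GTGCAAT as 7mer-m8, TGCAATA as 7mer-A1; sense strand) were searched in the longest GENCODE 3′ UTR (GRCm38), with sequences from RefSeq. Replicate pairs differed by more than counting noise, so each counted as 1 sample; the series text calls them biological replicates.

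Fits and matching were tested on simulated data. The named genes were the fixed genes, up to 12 called per direction by largest change (mean log2 CPM at least 2), up to 8 further 8mer genes, and up to 4 per list; some are not reported here. The comparison and lists were chosen with earlier results of these data known.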

Additional observations from a re-analysis of the deposited data

How the results depend on the processing

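Leaving out single libraries moved the count for Δ17,18,92 against Δ17,18 between 55 and 240 (114 with all), for Δ92 against wild type between 27 and 147, for heart between 31 and 377 and for the rest between 99 and 365; the tests of a difference gave 0 to 2. DESeq2 called 202 genes in the main comparison, 161 in Δ92, 295 in heart, 4 for the difference between the effects, and 43 and 3 for the tissue differences. Fitting only the libraries compared gave 181, 0 for Δ92, 13 in heart and, in the other direction, 639 in the remaining embryo, where DESeq2 called 581 (441 in the shared edgeR fit). The miR-92 score difference was 0.0796 with 7mer-m8 genes included and 0.116 to 0.150 without single libraries (0.132 with all).

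Replicate numbers did not pair the libraries (correlations of same-numbered deviations -0.50, 0.31 and 0.35). With a replicate block the counts were 105 (main), 60 (Δ92) and 0 (difference), heart gave 102, the remaining embryo 523, and both tissue differences 0. Sex as a factor, chosen after seeing the data, left 90 genes, 88 of them among the 114, with 41 of the 8mer genes higher; in Δ92 it left 40.

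Of 38 called genes under the naming rule, 22 kept the call without each of the 6 libraries and 21 in every alternative, and none changed sign. Among genes not called, Gpc5 (log2 0.03) ran from -0.23 to 0.60 without single libraries (including -0.10, -0.07 and -0.05) and was -0.12 with sex as a factor, Sox10 ran from -2.84 to 0.044 and Uncx from -2.0 to 0.38. Genes near 0 in 3 against 3 libraries were limited by this spread.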
